A study of Homo sapiens with 6 samples.

Results

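Loss of chromosome 7 or of its long arm, 7q, is recurrent in myeloid neoplasms, and genes of the arm have been studied there as tumor suppressors whose single remaining copy may not suffice. The 9 genes described here are 7q genes known in myeloid neoplasms and were taken by symbol from a table of 19779 genes with complete values. CUX1, KMT2C, KMT2E and TRRAP act in transcription and chromatin, LUC7L2 in splicing, BRAF and DOCK4 in signalling, and SAMD9 and SAMD9L restrict growth. All 9 symbols stood on 1 row each, and all 9 lie on the long arm.

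The compared groups were 3 libraries of SET-2 OTX P/R cells and 3 libraries of parental SET-2 cells. SET-2 is an established human leukemia cell line of megakaryoblastic character, labelled as secondary acute myeloid leukemia and as leukemia blast cells. OTX P/R is a derivative line labelled persistent and resistant to OTX, read here as the BET inhibitor birabresib, a blocker of the bromodomain proteins that read acetylated histones. Neither group was exposed to drug before harvest, and both were kept in RPMI with fetal bovine serum and taken in exponential growth. The labels name a single resistant derivative, so what came with resistance and other differences between the lines cannot be told apart, and they call the libraries biologic replicates. The values are StringTie abundances, which are scaled for transcript length, quantile-normalized by the authors, so a value reflects the rank of a gene in its library and the sequencing depth is unknown. The libraries correlated at 0.986 to 0.988 within groups and at 0.948 to 0.949 between groups over 10741 tested genes (Pearson, log2 scale, a description across genes).

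Of the 9 genes, 8 averaged 1 or more over the 6 libraries and were tested, and DOCK4 did not reach that level. A gene was called when the adjusted p of the limma fit over all 10741 tested genes was under 0.05. CUX1, KMT2E and TRRAP rose in OTX P/R cells, and SAMD9 and SAMD9L fell. KMT2C, LUC7L2 and BRAF had higher means in OTX P/R cells and were not called. These 3 higher and 2 lower calls among 8 stand beside 36.1% of all tested genes called in either direction, 18.6% higher and 17.5% lower. In 7 of the 8 the groups did not overlap, which was so for 51.6% of all tested genes. The results of this comparison were known when the genes were named, so the fold changes and adjusted p describe these genes and nothing is read from the counts.

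**Figure D1:**
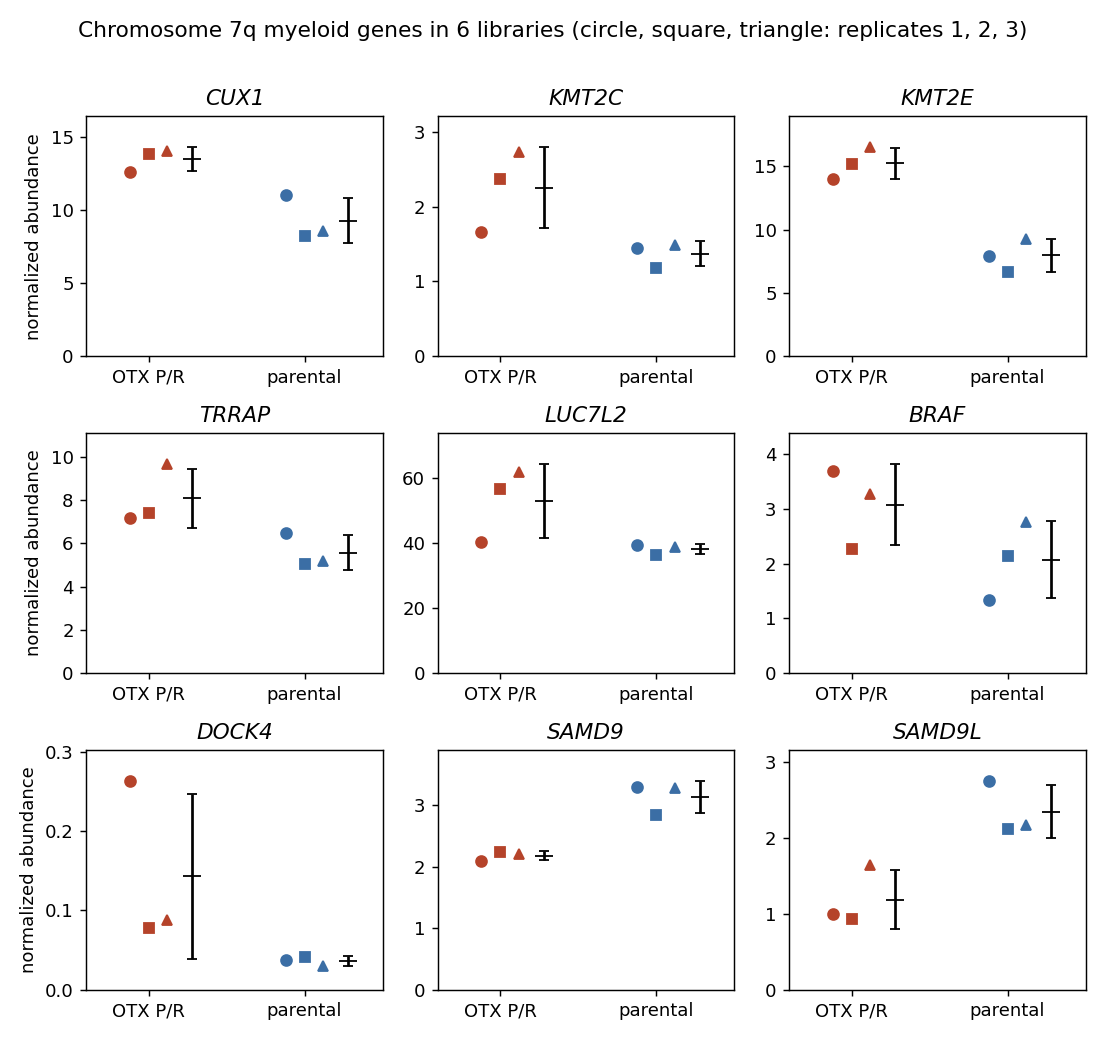
Normalized abundance (linear scale, each axis from 0) of the 9 genes in each library, OTX P/R on the left and parental on the right of each panel; symbols are replicates 1, 2 and 3, and the black bar is the mean ± SD of 3 libraries. KMT2E stood at 14.0 to 16.5 in OTX P/R libraries and at 6.69 to 9.27 in parental libraries, while SAMD9 and SAMD9L were lower in every OTX P/R library.

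KMT2E, a protein with SET and PHD domains that binds chromatin and is needed for normal blood cell formation in mice, had the highest log2 fold change of the tested members. Its abundance was 14.0, 15.2 and 16.5 in the OTX P/R libraries and 7.93, 6.69 and 9.27 in the parental libraries. Every OTX P/R library lay above every parental one. The means were 15.2 ± 1.25 in OTX P/R cells and 7.96 ± 1.29 in parental cells (SD, n = 3 each), with a log2 fold change of 0.86 ± 0.12 SE on the log2(value + 1) scale used throughout (limma adjusted p = 0.00264). The call held with any of the 6 libraries left out. With a pseudocount of 0.1 in place of 1, SAMD9L differed slightly more, at -0.96 against 0.94 for KMT2E. SRPK2, a kinase of splicing factors, overlaps KMT2E on the opposite strand and was also called higher, at 12.7 ± 1.81 in OTX P/R cells and 5.32 ± 0.938 in parental cells.

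CUX1, a homeodomain transcription factor whose loss is studied in 7q deletions, stood at 12.6, 13.8 and 14.1 in OTX P/R libraries and at 11.0, 8.21 and 8.57 in parental libraries. The groups did not overlap, and parental replicate 1 came closest to the OTX P/R libraries. The means were 13.5 ± 0.800 in OTX P/R cells and 9.27 ± 1.54 in parental cells (SD, n = 3 each), a log2 fold change of 0.51 ± 0.11 SE (limma adjusted p = 0.0171). The call was lost without OTX P/R replicate 2 (adjusted p = 0.0567), OTX P/R replicate 3 (0.0562) or parental replicate 3 (0.0571).

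TRRAP, the large scaffold that recruits histone acetyltransferases to MYC and other transcription factors, was at 7.15, 7.42 and 9.66 in OTX P/R libraries and at 6.48, 5.02 and 5.18 in parental libraries. The lowest OTX P/R library was close to the highest parental one. The means were 8.08 ± 1.38 in OTX P/R cells and 5.56 ± 0.803 in parental cells (SD, n = 3 each), a log2 fold change of 0.46 ± 0.14 SE (limma adjusted p = 0.0420). The call was lost without any 1 of 5 libraries, all but parental replicate 1, with adjusted p from 0.0526 to 0.116, and in a fit without the filter on low values (0.0699). SMURF1, a ubiquitin ligase gene that overlaps TRRAP on the opposite strand, was also called higher (log2 fold change 0.73). Whether reads were counted by strand is not given in the sources used here.

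KMT2C, a catalytic subunit of a complex that methylates histone H3 at enhancers, was low, at 1.66, 2.37 and 2.73 in OTX P/R libraries and 1.45, 1.19 and 1.48 in parental libraries. The groups did not overlap, but OTX P/R replicate 1 lay nearer to the parental libraries than to the other OTX P/R libraries. The means were 2.25 ± 0.542 in OTX P/R cells and 1.37 ± 0.163 in parental cells (SD, n = 3 each), and the log2 fold change was 0.44 with a 95% interval of 0.10 to 0.78 (limma adjusted p = 0.0512). Without OTX P/R replicate 1 it was called (adjusted p = 0.0137, log2 fold change 0.58). Parts of KMT2C have near-identical copies elsewhere in the genome, so its reads may have been divided among them.

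LUC7L2, a protein of the U1 small nuclear ribonucleoprotein that helps to choose splice sites, had the highest abundance of the 9. It was at 40.1, 56.5 and 61.9 in OTX P/R libraries and at 39.4, 36.3 and 38.8 in parental libraries. OTX P/R replicate 1 was barely above the parental libraries, and the other two OTX P/R libraries were well above them. The means were 52.8 ± 11.3 in OTX P/R cells and 38.2 ± 1.60 in parental cells (SD, n = 3 each), a log2 fold change of 0.44 with a 95% interval of 0.05 to 0.82 (limma adjusted p = 0.0778). Without OTX P/R replicate 1 it was called (adjusted p = 0.00320, log2 fold change 0.62).

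The table also holds a row for the readthrough gene C7orf55-LUC7L2, which contains LUC7L2 exons on the same strand, so reads of the locus can be split between the rows. That row stood at 76.5, 77.3 and 80.4 in OTX P/R libraries and at 46.9, 41.9 and 44.0 in parental libraries. It rose by a log2 fold change of 0.81 ± 0.06 SE (limma adjusted p = 1.54e-04), and OTX P/R replicate 1 did not stand apart in it. The summed abundance of the rows averaged 130.9 ± 13.1 in OTX P/R cells and 82.4 ± 4.01 in parental cells (SD, n = 3 each), a ratio of 1.59.

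BRAF, the serine/threonine kinase between RAS and MEK, was at 3.70, 2.26 and 3.28 in OTX P/R libraries and at 1.34, 2.13 and 2.76 in parental libraries. The groups overlapped, the only tested member of the 9 for which they did. The means were 3.08 ± 0.740 in OTX P/R cells and 2.08 ± 0.713 in parental cells (SD, n = 3 each), and the log2 fold change of 0.42 had a 95% interval of -0.11 to 0.94 (limma adjusted p = 0.182). BRAF was not called with any library left out. NDUFB2, a respiratory chain gene that overlaps BRAF on the opposite strand, was far more abundant, at 104.3 ± 5.45 in OTX P/R cells and 65.0 ± 1.00 in parental cells.

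DOCK4, an exchange factor that activates RAC and RAP GTPases, was near the bottom of the table in both lines. It stood at 0.263, 0.0780 and 0.0882 in OTX P/R libraries and at 0.0376, 0.0411 and 0.0295 in parental libraries. The groups did not overlap, with OTX P/R replicate 1 standing above the other two OTX P/R libraries. It was not tested in the filtered fit and no fold is given. With no filter on low values its adjusted p was 0.192.

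SAMD9 and SAMD9L are adjacent paralogs that encode cytoplasmic proteins which restrain growth and viral infection, and inherited activating variants of either cause marrow failure with loss of chromosome 7. Their expression is raised by interferon. In contrast to the genes above, both were lower in OTX P/R cells. SAMD9 was at 2.09, 2.24 and 2.20 in OTX P/R libraries and at 3.29, 2.84 and 3.28 in parental libraries. The groups did not overlap and the OTX P/R libraries were close together. The means were 2.18 ± 0.0769 in OTX P/R cells and 3.13 ± 0.257 in parental cells (SD, n = 3 each), a log2 fold change of -0.38 ± 0.07 SE (limma adjusted p = 0.00908), and the call held with any library left out.

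SAMD9L was at 0.989, 0.929 and 1.63 in OTX P/R libraries and at 2.74, 2.11 and 2.17 in parental libraries. The groups did not overlap, and OTX P/R replicate 3 was the highest of its group. The means were 1.18 ± 0.391 in OTX P/R cells and 2.34 ± 0.350 in parental cells (SD, n = 3 each), a log2 fold change of -0.62 ± 0.15 SE (limma adjusted p = 0.02004). The call was lost without OTX P/R replicate 1 (adjusted p = 0.0639), OTX P/R replicate 2 (0.0627) or parental replicate 1 (0.0590).

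The upstream promoter sequences of SAMD9, SAMD9L and KMT2E are shown because the paralogs had the lowest and KMT2E the highest fold change of the tested members. They are the 250 bases before the start site, from RefSeq on GRCh38.p14, which held entries for 8 of the 9 genes. In the SAMD9 sequence capitals mark an interferon response element, GAAA followed by any 2 bases and GAAA, searched on both strands and not found in the SAMD9L sequence, and in the KMT2E sequence capitals mark the GC box GGGCGG, also searched on both strands.
SAMD9 (chr7:93117980-93118229, minus strand): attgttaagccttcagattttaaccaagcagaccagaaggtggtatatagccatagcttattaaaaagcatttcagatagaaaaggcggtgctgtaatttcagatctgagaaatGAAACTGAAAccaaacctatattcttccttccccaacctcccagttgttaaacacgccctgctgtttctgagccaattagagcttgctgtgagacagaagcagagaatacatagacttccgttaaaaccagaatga
SAMD9L (chr7:93148386-93148635, minus strand): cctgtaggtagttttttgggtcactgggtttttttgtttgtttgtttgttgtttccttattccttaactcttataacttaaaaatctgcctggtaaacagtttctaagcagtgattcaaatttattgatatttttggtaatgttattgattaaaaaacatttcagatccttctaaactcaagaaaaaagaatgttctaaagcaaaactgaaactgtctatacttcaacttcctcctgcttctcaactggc
KMT2E (chr7:105013955-105014204, plus strand): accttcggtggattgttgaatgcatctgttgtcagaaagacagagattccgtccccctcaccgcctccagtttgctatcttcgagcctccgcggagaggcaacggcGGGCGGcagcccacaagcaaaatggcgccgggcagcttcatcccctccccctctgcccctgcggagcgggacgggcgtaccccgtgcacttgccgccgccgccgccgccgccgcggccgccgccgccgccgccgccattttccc

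The interferon element had 1 match, in the SAMD9 sequence, 136 bases before the start site, and none in the other members' sequences. Among 35116 promoter entries of the same length 3.02% held it. The GC content was 40.0% for SAMD9 and 31.6% for SAMD9L, against 68.8% for KMT2E and a median of 58.0% over all entries. The GC box, found in 42.6% of all entries, had 1 match in the KMT2E sequence, none in those of SAMD9, SAMD9L and BRAF or in 1 of the 2 LUC7L2 sequences, and 15 in that of KMT2C, overlapping matches counted. Only exact matches were counted, which leaves out near matches such as aaaactgaaa in the SAMD9L sequence, different from the element in its first base. The matches are letters in a window and do not show binding.

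The 6 tested members with higher means in OTX P/R cells lay further along the long arm than the 2 with lower means. The 317 tested genes of the long arm had a median log2 fold change of 0.54, with 202 higher and 18 lower, against a median of 0.05 in 176 tested genes of the short arm, with 33 higher and 23 lower. Over all tested genes the median was 0.02, and the medians of the other chromosomes ran from -0.32 for chromosome 5 to 0.06 for chromosome 12. The running median over 25 tested genes stayed between -0.10 and 0.25 along the short arm and the first part of the long arm. From DYNC1I1, separated from SAMD9L by 5 tested genes, onward it lay between 0.36 and 0.83, up to the last full window of the chromosome. TRRAP, CUX1, KMT2E, LUC7L2, BRAF and KMT2C lie within this distal run of 236 tested genes, and SAMD9 and SAMD9L lie just before it. In the run 194 genes were called higher and 3 lower, while of the 81 tested long-arm genes before it 8 were higher and 15 lower. The run was defined from these fold changes, so its counts and its start are a description. The window of 25 genes at its start includes SAMD9 and SAMD9L, so the edge is not resolved to single genes.

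**Figure D2:**
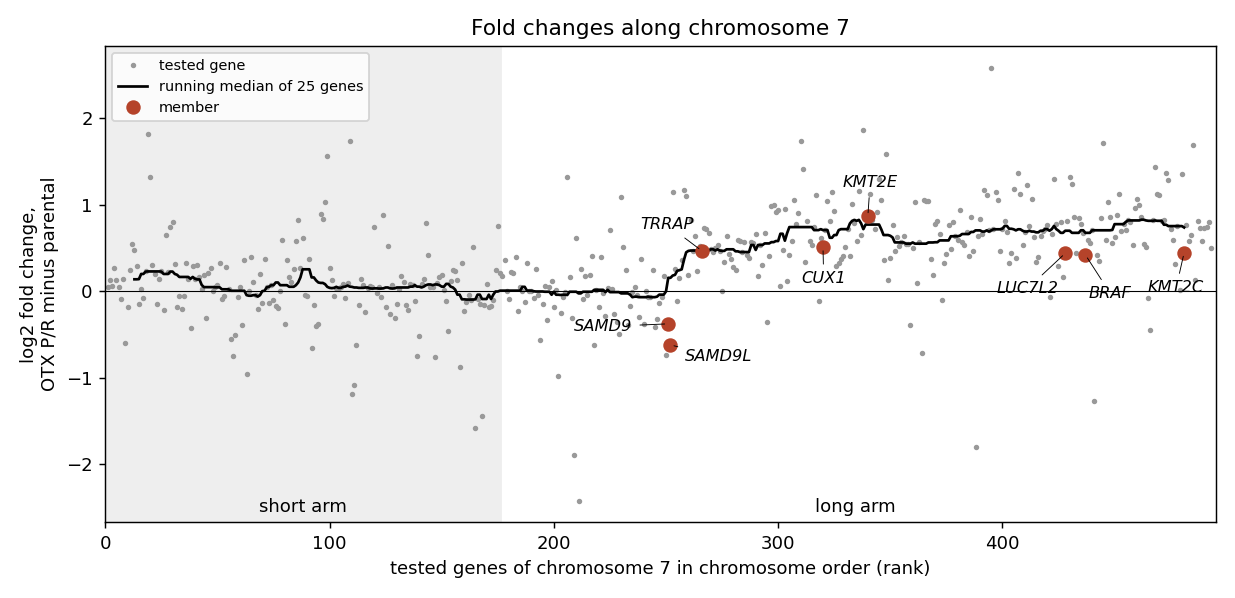
Log2 fold change (OTX P/R minus parental) of the 493 tested genes of chromosome 7 in chromosome order, with the running median of 25 genes as a line, the 8 tested members in red and the short arm shaded. The line leaves the zone around 0 shortly after SAMD9 and SAMD9L and stays between 0.36 and 0.83 up to the last full window.

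Within the long arm most of the 6 distal members were not extreme. KMT2E ranked at 59 of the 317 tested genes by log2 fold change, CUX1 at 170, TRRAP at 181, KMT2C at 187, LUC7L2 at 188 and BRAF at 195. SAMD9 ranked at 301 and SAMD9L at 310. Relative to the median of 0.55 in the other 309 tested 7q genes, a scale chosen after the data were seen, KMT2E was higher by 0.31, CUX1 stood at -0.04, TRRAP at -0.09, KMT2C and LUC7L2 at -0.11 and BRAF at -0.13. The difference from that median, which takes in long-arm genes before the run, was within 1 SE for CUX1, TRRAP, KMT2C, LUC7L2 and BRAF. SAMD9 stood at -0.93 and SAMD9L at -1.17 on the same scale. The 230 tested genes of the run other than members had a median of 0.67, above the fold changes of CUX1, TRRAP, KMT2C, LUC7L2 and BRAF.

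Each member was then set beside the 10 tested genes on either side of it. The neighbours of KMT2E had a median log2 fold change of 0.80, with 19 of 20 called higher, among them the overlapping SRPK2 (1.12) and ORC5, of the origin recognition complex (0.84). Those of CUX1 had a median of 0.66 with 18 of 20 higher, those of LUC7L2 0.74 with 16, those of KMT2C 0.74 with 17, those of BRAF 0.69 with 14 and those of TRRAP 0.49 with 12. Of these 6 genes, KMT2E alone lay above its neighbours' median, by 0.06, and KMT2C and LUC7L2 lay furthest below theirs, by 0.29 and 0.31. The neighbours of LUC7L2 include C7orf55-LUC7L2 (log2 fold change 0.81), whose row can hold reads of LUC7L2. The summed abundance of these rows had a ratio of means of 1.59, so the LUC7L2 row alone may not give the difference of the locus. The size of the KMT2C value depends on the pseudocount, since its log2 fold change was 0.65 with a pseudocount of 0.1 and its ratio of means was 1.64. The place of DOCK4 is in the same run, with a neighbour median of 0.55 and 13 of 20 higher.

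The neighbours of SAMD9 had a median of 0.07, with 3 higher and 4 lower, and those of SAMD9L a median of 0.17, with 4 higher and 4 lower. Both sets of neighbours reach into the distal run, and each paralog is counted among the neighbours of the other. CDK6, a cell cycle kinase and the gene before SAMD9, was also lower, at 11.8 ± 1.02 in OTX P/R cells and 20.4 ± 1.29 in parental cells (log2 fold change -0.74 ± 0.08 SE). HEPACAM2, the gene after SAMD9L, rose to 1.82 ± 0.283 in OTX P/R cells, against 0.275 ± 0.115 in parental cells (SD, n = 3 each). HEPACAM2 was under 1 in parental cells, so it passed the filter on low values only through its OTX P/R values. The next tested genes, VPS50 (log2 fold change 0.25), BET1 (-0.11), CASD1 (0.15) and PON2 (0.36), were not called.

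**Figure D3:**
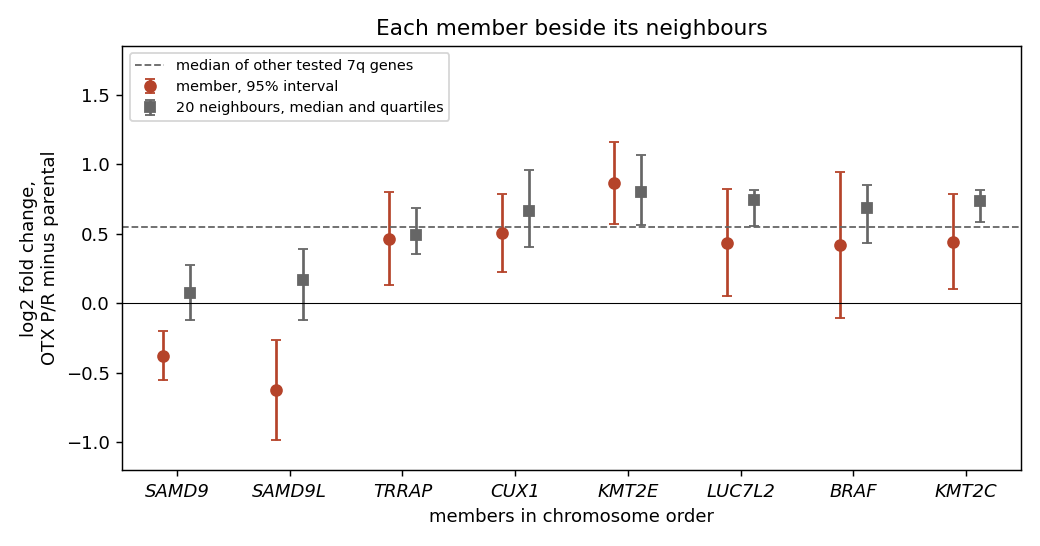
Log2 fold change of the 8 tested members (circles, with 95% intervals of the limma fit) and of their 20 nearest tested neighbours (squares, median and quartiles), in chromosome order. The dashed line is the median of the other tested 7q genes, 0.55. SAMD9 and SAMD9L lie below the lower quartile of their neighbours and below 0, and the other 6 lie between 0.42 and 0.86.

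The spread between libraries of a group was partly shared by the distal members. OTX P/R replicate 1 was the lowest of its group for 5 of the 6, OTX P/R replicate 3 the highest for 5, and parental replicate 2 the lowest of its group for 5, with BRAF the exception each time. The other tested 7q genes did not share this order, with median log2 differences from the parental mean of 0.553, 0.566 and 0.542 in OTX P/R replicates 1, 2 and 3. Of the 8 tested members 7 have a longest annotated transcript of over 5658 bases, as do 2139 tested genes in all. Over all such genes the median deviation from the group mean was -0.026, -0.011 and 0.035 in OTX P/R replicates 1, 2 and 3 and 0.040, -0.049 and 0.009 in parental replicates 1, 2 and 3 on the log2 scale, and their median log2 fold change between the lines was 0.01. The part of transcript length in the members' spread was not tested.

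A wider list of 32 other 7q genes discussed in myeloid neoplasms or in 7q deletions was read beside the arm as a whole. Of its 25 tested genes 19 rose, 1 fell and 5 were not called (76% higher), with a median log2 fold change of 0.82, beside 63.7% higher among all tested 7q genes and 82.2% in the distal run. EPHB4, a receptor tyrosine kinase, rose to 24.4 ± 0.443 in OTX P/R cells, against 6.68 ± 0.541 in parental cells (SD, n = 3 each), and ZYX, a focal adhesion protein, to 157.3 ± 7.47 in OTX P/R cells, against 47.4 ± 1.60 in parental cells. EZH2, the histone methyltransferase of Polycomb complex PRC2, rose to 21.7 ± 1.38 in OTX P/R cells, against 11.6 ± 1.44 in parental cells. HIPK2, a kinase close to the LUC7L2 locus, rose by a log2 fold change of 1.32. CDK6 was the gene of the list that fell. The summed abundance of the list was 832.5 to 856.2 in OTX P/R libraries and 452.5 to 471.0 in parental libraries.

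The genes of 7q with the largest differences were not members. TSPAN33, a tetraspanin, rose to 27.1 ± 0.221 in OTX P/R cells, against 3.73 ± 0.745 in parental cells (SD, n = 3 each). RELN, a secreted matrix glycoprotein, rose to 2.67 ± 0.154 in OTX P/R cells, against 0.00626 ± 0.00418 in parental cells. EPHB4, ZYX and INSIG1, a sterol sensor, completed the 5 largest rises. Among the 5 largest falls, NCF1, a subunit of the phagocyte oxidase with near-identical pseudogenes, stood at 0.611 ± 0.577 in OTX P/R cells and 7.31 ± 0.435 in parental cells. GTF2IRD1 fell by 1.90 on the log2 scale, FAM71F1 by 1.81, EPHB6 by 1.27 and CDK6 by 0.74. RELN averaged under 1 in parental cells, so it passed the filter on low values only through its OTX P/R values. NCF1, GTF2IRD1, FAM71F1 and EPHB6 averaged under 1 in OTX P/R cells and passed the filter only through their parental values.

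Known partners of the members were counted next, wherever they are encoded, beside the 36.1% of all tested genes called in either direction. Of 16 tested subunits of the KMT2 methyltransferase complexes 3 rose, none fell and 13 were not called, with a median log2 fold change of 0.17. PAXIP1, a subunit shared by KMT2C and KMT2D complexes and itself a 7q gene, rose by 0.65, CXXC1 by 0.45 and PAGR1 by 0.28. The other catalytic subunits were not called, among them KMT2D, at 4.79 ± 0.792 in OTX P/R cells and 4.13 ± 1.03 in parental cells, and KMT2A, at 2.77 ± 0.777 in OTX P/R cells and 2.24 ± 0.329 in parental cells (SD, n = 3 each).

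Of 31 tested partners of TRRAP in the TIP60 and SAGA acetyltransferase complexes 3 rose, 4 fell and 24 were not called, with a median log2 fold change of -0.01. ING3, a reader of methylated histone H3 and a 7q gene, rose by 0.67, while BRD8 fell by 0.83 and the acetyltransferase KAT2A by 0.59 on the log2 scale. KAT5, the catalytic subunit of TIP60, stood at 22.8 ± 1.23 in OTX P/R cells and 23.2 ± 1.00 in parental cells. Of 17 tested U1 and LUC7 genes 4 rose, 1 fell and 12 were not called, with a median of 0.08. SNRPA rose by 0.32 and SNRPG by 0.26, and the LUC7L2 paralogs LUC7L and LUC7L3 were not called, with log2 fold changes of 0.11 and 0.16.

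Around BRAF, of 25 tested genes of the RAS, RAF and ERK cascade 3 rose, 7 fell and 15 were not called, with a median log2 fold change of -0.04. SOS1, an exchange factor that loads RAS with GTP, fell to 6.52 ± 0.349 in OTX P/R cells, against 15.7 ± 0.926 in parental cells (SD, n = 3 each). NF1, a RAS inhibitor, fell by 0.77 and NRAS by 0.34, while MAPK3, an ERK kinase, rose by 0.43 and the adaptor GRB2 by 0.38. NF1 averaged 0.512 in OTX P/R cells and passed the filter only through its parental values. These were 2.79, 1.12 and 1.13 in parental replicates 1, 2 and 3, and its call was near the threshold (limma adjusted p = 0.0490). Of 16 tested DOCK, ELMO and small GTPase genes 1 rose, 2 fell and 13 were not called, with a median of 0.11. DOCK8 fell to 14.2 ± 3.50 in OTX P/R cells, against 29.1 ± 5.18 in parental cells. DOCK6 fell by 1.07 and RAC3 rose by 0.86 on the log2 scale. DOCK6 averaged 0.516 in OTX P/R cells and passed the filter only through its parental values, which averaged 2.17.

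Around CUX1, of 13 tested genes of the phosphoinositide 3-kinase pathway 2 rose, 2 fell and 9 were not called, with a median log2 fold change of -0.08. PIK3R3, a regulatory subunit, rose by 0.40 and MTOR by 0.26, and the catalytic subunits PIK3CD and PIK3CA fell by 0.56 and 0.24. The catalytic subunit PIK3CB was not called (log2 fold change 0.04). PIK3CG, a catalytic subunit encoded on 7q, was under the level needed for testing. It was higher without overlap, at 1.10 ± 0.198 in OTX P/R cells and 0.336 ± 0.0422 in parental cells (SD, n = 3 each). PIK3IP1, a kinase inhibitor that CUX1 is known to activate, was under the level needed for testing, at 0.429 ± 0.0224 in OTX P/R cells and 0.481 ± 0.0873 in parental cells.

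Interferon genes were lower in part, as SAMD9 and SAMD9L were. Of 20 tested interferon-stimulated genes and interferon signal transducers none rose, 11 fell and 9 were not called, with a median log2 fold change of -0.40. Over all tested genes 18.6% were called higher and 17.5% lower. In the interferon list 6 more genes were under the level needed for testing. Among those 6, IFIT1, an antiviral RNA-binding protein, was higher without overlap, at 1.25 ± 0.118 in OTX P/R cells and 0.576 ± 0.237 in parental cells (SD, n = 3 each). IFIT3, an antiviral protein induced by interferon, fell to 5.86 ± 0.272 in OTX P/R cells, against 13.4 ± 0.671 in parental cells (SD, n = 3 each). OAS1 fell by 1.03 on the log2 scale. It averaged 0.487 in OTX P/R cells and passed the filter only through its parental values, which averaged 2.01. ISG15 was not called, at 25.02 ± 1.11 in OTX P/R cells and 24.7 ± 0.125 in parental cells. Of 9 early endosome genes, set beside SAMD9 and SAMD9L because the proteins act at endosomes, 2 rose, 1 fell and 6 were not called. RAB11A rose by 0.59, VPS4A by 0.27, and RAB5C fell by 0.67 on the log2 scale.

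**Figure D4:**
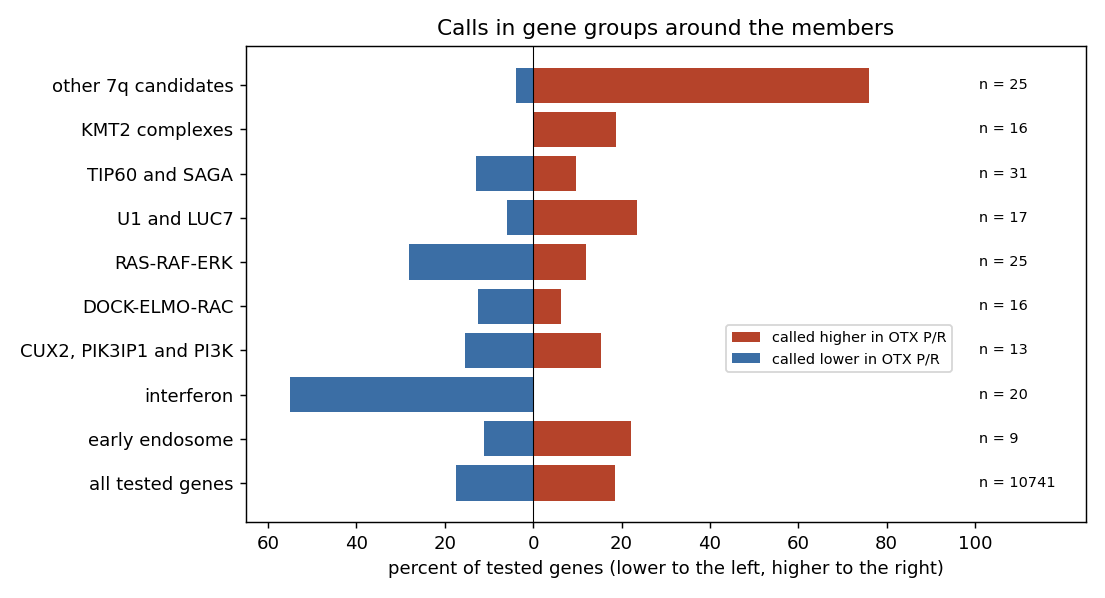
Share of tested genes called lower (bars to the left) or higher (bars to the right) in OTX P/R cells, in percent, for 9 gene groups and for all 10741 tested genes, with the number tested at the right. The other 7q candidates have 19 of 25 genes called higher and the interferon group 11 of 20 called lower.

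The defining markers of the line were present in both groups. All 10 megakaryoblast markers were tested, with GATA1, the transcription factor of the lineage, at 203.9 ± 3.87 in OTX P/R cells and 188.7 ± 4.90 in parental cells (SD, n = 3 each), and their summed abundance was 854.6 to 872.0 in OTX P/R libraries and 864.4 to 897.2 in parental libraries. Of these 6 rose and 3 fell, while over all tested genes 18.6% were called higher and 17.5% lower. Markers of other cells were present too. The T and NK list summed to 31.0 to 33.5 in OTX P/R libraries and 75.6 to 83.9 in parental libraries, with 4 of 4 tested genes lower. Most of that sum was NKG7, a granule protein of cytotoxic cells, at 29.6 ± 1.31 in OTX P/R cells and 62.2 ± 2.64 in parental cells. Of the 4 tested, CD3D and GZMB averaged under 1 in OTX P/R cells and passed the filter only through their parental values. The B cell list summed to 9.996 to 10.9 in OTX P/R libraries and 13.8 to 16.1 in parental libraries, with 2 of 2 lower and MS4A1 at 0 in every library. The stromal, endothelial and epithelial list summed to 30.7 to 34.1 in OTX P/R libraries and 16.8 to 19.6 in parental libraries, with 2 of 2 higher, PECAM1 at 15.3 ± 0.541 in OTX P/R cells and 7.90 ± 0.616 in parental cells and KRT18 at 14.3 ± 1.20 in OTX P/R cells and 9.52 ± 0.884 in parental cells. Their part in the members' differences was not tested, and fewer cells of a type and less RNA per cell cannot be told apart in bulk samples.

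For the 3 members with the largest log2 fold changes at a pseudocount of 1 (at 0.1, KMT2C and BRAF exceed CUX1), the tested genes of most similar pattern were found by the root mean square difference of centred log2(value + 1) over the 6 libraries. For KMT2E these were FZD6, PUS7 and ABCB11, at 0.07, 0.07 and 0.08, and PUS7 is a 7q gene close to it. For SAMD9L they were PIP4K2B, SLMAP and SP100, at 0.06, 0.08 and 0.08, none of them on chromosome 7. For CUX1 they were DAPK1, ELMSAN1 and NUP210, at 0.03, 0.04 and 0.05, likewise on other chromosomes.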

How the data were processed

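Total RNA of 6 cultures was sequenced. Per the submitters' processing notes, Trim Galore, HISAT2 and StringTie were used with hg19. The sources give neither their versions nor whether the abundance is FPKM or TPM. The authors quantile-normalized the StringTie gene abundances, and this deposited signal is linear. After sorting, no value of 1 or above varied by more than 0.243% between libraries, and libraries summed to 419375 to 419437, so depth is unknown and no counting intervals are given.

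Of 19785 rows, 6 with a missing value were left out. GENCODE v29 (GRCh38, not the authors' build) matched 19528 genes without version and gave chromosome arms, gene order, overlaps and transcript length. A two-sided limma test (3.58.1, R 4.3.3) was run on log2(value + 1) of the 10741 genes whose mean reached 1, with a trended prior and Benjamini-Hochberg adjustment over all tested genes. With 3 libraries against 3, an exact permutation test cannot give a two-sided p under 0.1. A running median of 25 genes and 10 neighbours on each side described position; a run has a running median of at least 0.3. Repeated symbols in lists were represented by the row with the higher mean. The fit was tested on simulated data.

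The members, the 13 gene lists and the motifs were chosen with earlier results of these data known. Genes named are the members, up to 3 called genes per direction in each list and the 5 largest called rises and falls of 7q. The 3 most similar genes of 3 members are named too. Overlapping, adjacent and uncalled genes, EZH2, IFIT1 and PIK3CG were named after their values were seen. A few genes that this rule or the lists hold are not reported here. Alternatives were pseudocounts of 0.1 and 5, no filter, a minimum mean of 5, an untrended prior, a robust prior, centring, the replicate block and each library left out. Python 3.11.15, pandas 2.3.3, NumPy 2.4.6 and Matplotlib 3.10.9 were used.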

Additional observations from a re-analysis of the deposited data

How the results depend on the processing

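No fold change of a member changed sign under the other alternatives run on the scale of the report, and the calls of KMT2E and SAMD9 held wherever the gene was tested. With each library left out in turn, the members called higher numbered 1 to 4 (1 without OTX P/R replicate 2 or 3 or parental replicate 3) and those called lower 1 to 2 (1 without OTX P/R replicate 1 or 2 or parental replicate 1), the called 7q genes 173 to 189 higher and 14 to 16 lower. With a minimum mean of 5, SAMD9 and SAMD9L were not tested and 0 members were called lower, and 10 genes of 7q were lower; with no filter 31 were lower. KMT2C was called with a prior without trend (adjusted p = 0.0479). With the replicate number as a block, 1 member was called higher and 1 lower. The calls of CUX1 (adjusted p = 0.0561), SAMD9L (0.0511) and TRRAP (0.0904) were lost. Same-numbered libraries deviated from their group means with correlations of -0.065, -0.028 and 0, so no deviation shared by number was seen across genes. These correlations cannot show whether same-numbered cultures were handled together. Relative to the median of the other tested 7q genes, a scale added once the values were known, the fold changes of CUX1 (-0.044), TRRAP (-0.086), KMT2C (-0.11), LUC7L2 (-0.11) and BRAF (-0.13) changed sign, which follows from subtracting that median. Between pseudocounts of 0.1 and 5 the log2 fold change ran from -0.96 to -0.25 for SAMD9L, -0.50 to -0.18 for SAMD9, 0.65 to 0.18 for KMT2C, 0.58 to 0.19 for BRAF and 0.53 to 0.31 for TRRAP.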
